A study of Homo sapiens with 6 samples.

Results

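The genes described here are the 7 human fatty acid elongases, ELOVL1 to ELOVL7, and the enzymes that complete the elongation cycle with them, HSD17B12, HACD3 and TECR. They were taken by gene symbol from the deposited count tables, 10 of 60612 genes, and all 10 were among the 17854 genes with enough counts to test. RNA was sequenced from SKBR3, a mammary epithelial cancer line with extra copies of the gene for the receptor HER2. The trastuzumab group held 3 libraries of SKBR3 cells grown for 30 weeks in rising amounts of trastuzumab, an antibody to HER2 used as a drug, to model acquired resistance. The parental group held 3 libraries of untreated SKBR3 cells. The labels do not say whether the drug was present at harvest, whether the trastuzumab cells were a pool or a single clone, or whether the replicates were separate cultures, so the p-values rest on the spread between these samples alone and that spread may be technical.

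Fatty acid elongation takes place at the endoplasmic reticulum and lengthens an acyl-CoA with carbons from malonyl-CoA. An ELOVL enzyme performs the condensation and sets which chains are accepted, and the 3-ketoacyl-CoA reductase HSD17B12, a 3-hydroxyacyl-CoA dehydratase such as HACD3 and the trans-2-enoyl-CoA reductase TECR then finish each turn. The products go into membrane phospholipids, sphingolipids and stored lipid, and HER2-positive breast cancer cells are known for active fatty acid synthesis, which feeds this cycle.

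The trastuzumab libraries held 71015138 to 82857810 counts and the parental libraries 71767118 to 72353624. Levels are given as CPM, each library's counts over its scaled total and expressed per M counts. A count of 3, the floor used here, corresponds to 0.0372 to 0.0428 CPM. That floor covers counting error only. All 8 luminal breast markers were at 1 CPM or more, with summed levels of 23711 to 25502 CPM in trastuzumab and 20258 to 22014 CPM in parental libraries. Among markers of other cells, 3 of 6 fibroblast markers reached a mean of 1 CPM (sum of all 6, 6.06 to 10.9 CPM in trastuzumab and 9.19 to 19.2 CPM in parental libraries), as did 2 of 5 leukocyte markers (42.7 to 49.0 CPM in trastuzumab and 14.4 to 17.2 CPM in parental libraries, mostly CD68). Of 3 endothelial markers 2 did so (78.9 to 85.9 CPM in trastuzumab and 28.5 to 31.7 CPM in parental libraries, mostly CDH5), and of 4 adipocyte markers 1 (3.02 to 3.59 CPM in trastuzumab and 1.22 to 2.06 CPM in parental libraries). The part of such cells or genes in the results below was not tested. Levels within these lists were uneven. CD68 had 40.9 to 46.9 CPM in trastuzumab and 13.2 to 16.2 CPM in parental libraries. CDH5 had 75.2 to 82.4 CPM in trastuzumab and 25.2 to 27.7 CPM in parental libraries. PLIN1 of adipocytes had 2.79 to 3.44 CPM in trastuzumab and 0.976 to 1.95 CPM in parental libraries. PTPRC of leukocytes and PECAM1 of endothelium reached at most 0.31 and 0.224 CPM in any library, and CIDEC of adipocytes was at 0 in all 6. Fold changes across the transcriptome moved with base composition. Over 11665 genes, which are not independent replicates, Spearman's rho of the log2 fold change was 0.625 against the GC content of the transcript and -0.321 against its exonic length. Values from a second fit, which removes such a trend from each library, therefore stand beside the results as corrected values. That fit also removes any real change linked to GC content or length.

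Most of the elongases that changed were lower in trastuzumab than in parental cells, and ELOVL6 and ELOVL7 had the lowest fold changes, at 44.2% and 49.1% of the parental level (57.9% and 66.5% with the correction). Of the 10 genes, 2 were higher (ELOVL3 and TECR), 5 lower (ELOVL4, ELOVL5, ELOVL6, ELOVL7 and HSD17B12) and 3 did not pass the test (ELOVL1, ELOVL2 and HACD3) by edgeR's quasi-likelihood test at an adjusted p below 0.05 over all tested genes. By the same rule 49.3% of all tested genes changed, 23.9% higher and 25.4% lower. The 7 changed genes were also the 7 whose groups did not overlap in CPM, a state reached by 57.5% of tested genes. Both counts of 7 are to be read against these shares. A change of at least 2-fold was less common, at 7.78% of tested genes (3.93% lower), and 2 of the 10 genes, ELOVL6 and ELOVL7, were among those. ELOVL7 came to just under 2-fold without parental replicate 1 (log2 fold change -0.98), parental replicate 2 (-0.96) or trastuzumab replicate 3 (-0.95) and with upper quartile factors (-0.97), and to -0.74 on FPKM with a pseudocount of 1. With the correction neither gene reached 2-fold. The median log2 fold change was -0.20 over the 10 genes and -0.46 over the 7 elongases, against -0.0057 over all tested genes. With the correction for GC content and length, 4 of the 10 were lower (20.1% of all genes), 3 higher (18.9%) and 3 not past the test. The 4 lower were ELOVL1, ELOVL5, ELOVL6 and ELOVL7, and the corrected median over the 7 elongases was -0.30. The 3 higher were HSD17B12, HACD3 and TECR, with a corrected median of 0.22. Over the 10 the corrected median was -0.04. Corrected with the principal transcript of each gene it was -0.21, so the median depends on how the transcripts are described. Filters that leave out the scarce ELOVL2 gave -0.36 at 1 CPM, and -0.41 and -0.44 at 1 FPKM with pseudocounts of 1 and 0.1.

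**Figure D1:**
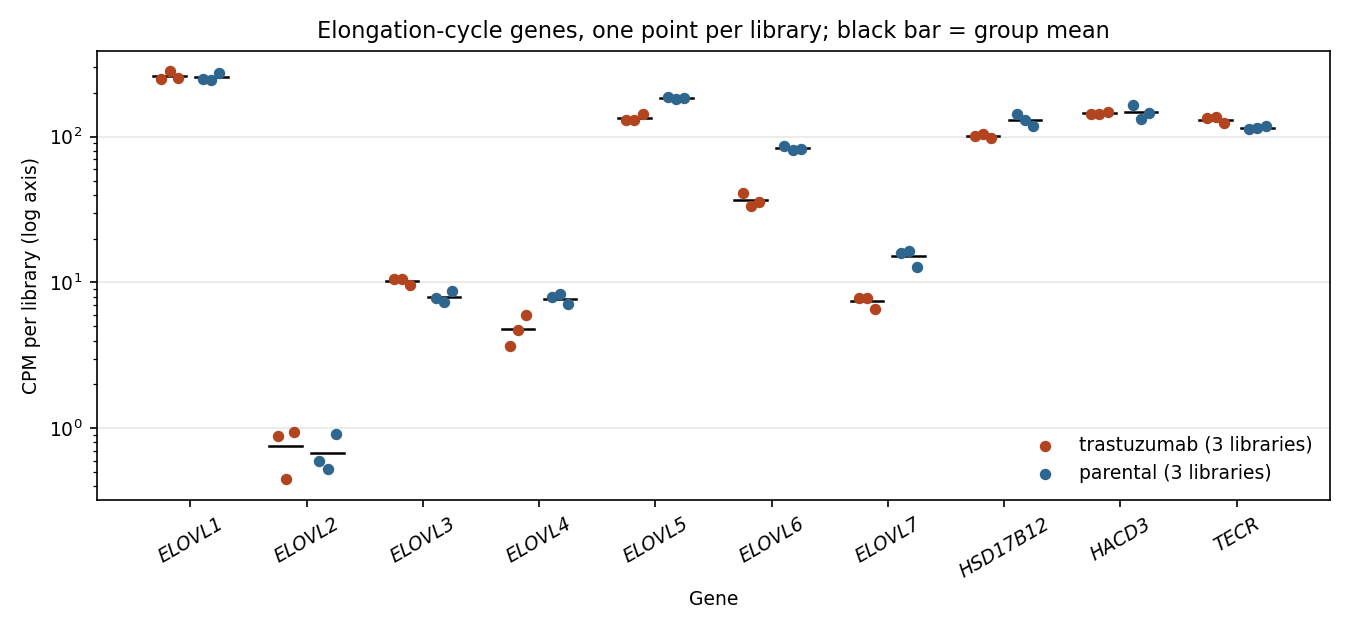
CPM of each of the 10 genes (x axis) on a log y axis, one point per library, trastuzumab left and parental right for each gene, with a black bar at the group mean (3 libraries a group). The groups lie apart for ELOVL3, ELOVL4, ELOVL5, ELOVL6, ELOVL7, HSD17B12 and TECR and overlap for ELOVL1, ELOVL2 and HACD3.

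The bases before the start sites of elongases that differed between the groups are shown first, so that they can be set beside the values. RefSeq (GRCh38.p14) listed a promoter for 9 of the 10 genes, all but HSD17B12. The 250 bases before each start site were searched on both strands for the E-box CACGTG, the CCAAT box CCAAT, the sterol regulatory element core TCACNCCAC and the GC box GGGCGG. These are known as sites of the USF, NF-Y, SREBP and SP1 factors, which act on lipogenic genes. ELOVL6 and ELOVL7, with the lowest fold changes of the 10, ELOVL4, also lower, and ELOVL3, which was higher, are printed 5′ to 3′ on the strand of the gene, leaving out annotated exons. Capitals mark every motif match.
ELOVL6, chr4:110198677-110198841, minus strand: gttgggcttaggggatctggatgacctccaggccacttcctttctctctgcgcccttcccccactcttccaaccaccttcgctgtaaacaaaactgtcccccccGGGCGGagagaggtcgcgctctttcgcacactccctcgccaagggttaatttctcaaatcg
ELOVL7, chr5:60844390-60844519, minus strand: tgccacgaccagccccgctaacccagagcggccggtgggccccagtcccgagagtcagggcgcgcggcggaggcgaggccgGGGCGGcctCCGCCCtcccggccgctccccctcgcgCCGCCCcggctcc
ELOVL4, chr6:79947581-79947803, minus strand: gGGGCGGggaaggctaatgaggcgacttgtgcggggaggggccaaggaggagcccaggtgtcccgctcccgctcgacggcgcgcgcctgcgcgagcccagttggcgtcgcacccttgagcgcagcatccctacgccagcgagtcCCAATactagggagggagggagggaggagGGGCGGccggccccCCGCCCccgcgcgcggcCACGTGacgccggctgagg
ELOVL3, chr10:102226049-102226298, plus strand: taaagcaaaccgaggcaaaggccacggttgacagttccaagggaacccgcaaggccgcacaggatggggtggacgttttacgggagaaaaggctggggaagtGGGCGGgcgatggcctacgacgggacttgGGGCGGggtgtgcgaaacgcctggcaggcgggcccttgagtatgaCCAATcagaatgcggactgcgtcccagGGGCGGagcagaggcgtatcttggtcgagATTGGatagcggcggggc

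The ELOVL6 stretch held a single GC box, 122 to 117 bases before the start site, and no CCAAT box or E-box. The ELOVL7 stretch likewise held GC boxes only, 3 of the 4 in its window. The ELOVL6 stretch lies inside the annotated gene, whose outermost start on the minus strand is at 110199199. Bases before that outermost start were not searched. The whole ELOVL4 window held 4 GC boxes, 2 CCAAT boxes and, 46 to 41 bases before its start site, an E-box. A CCAAT box at 25 to 21 bases and a GC box at 18 to 13 bases lie outside its printed stretch. ELOVL5 lies in exons of longer transcripts over most of the window, so only 30-base sites around its E-box and both CCAAT boxes (ATTGG on the strand of the gene) are shown, with the matches in capitals.
ELOVL5 E-box, chr6:53349144-53349173, minus strand: atttcccagagaCACGTGgaaccgaggggc
ELOVL5 CCAAT box, chr6:53349055-53349084, minus strand: tattgtcccgcgATTGGctcccgggccgca
ELOVL5 CCAAT box, chr6:53349001-53349030, minus strand: cttcgggtcccgATTGGctggccgcgccat

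Over 35114 RefSeq promoters of the same length, 6.35% held an E-box, 32% a CCAAT box, 42.6% a GC box and 0.883% the sterol regulatory element core. The E-box stood in ELOVL4 and ELOVL5 alone among the 9 genes, and the sterol element core in none, which says only that these letters are not in these windows. HACD3 and TECR had 2 listed start sites each, and both windows were searched. ELOVL1, ELOVL3 and TECR each held at least 1 CCAAT box, with 4 at either TECR site. HACD3 held 1 at its first site and 0 at its second, while ELOVL2, ELOVL6 and ELOVL7 held none. In ELOVL1 the CCAAT box shares its first bases with a GC box. ELOVL5 held no GC box. The 4 elongases that were lower in trastuzumab cells therefore had none of these motifs in common.

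**Figure D2:**
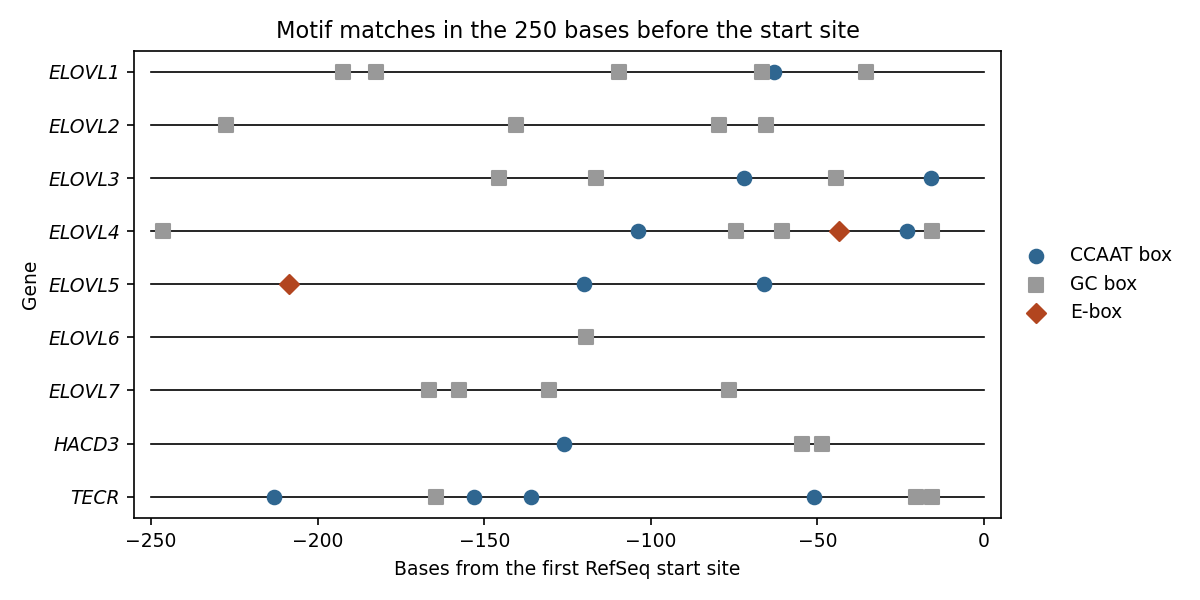
Motif matches in the 250 bases before the first RefSeq start site of 9 genes (x axis, bases from the start site), with circles for CCAAT boxes, squares for GC boxes and diamonds for E-boxes. ELOVL6 has 1 GC box and ELOVL7 has 4 and no other match, while ELOVL4 and ELOVL5 each hold an E-box.

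ELOVL6 lengthens palmitate and palmitoleate, the end products of fatty acid synthase and of its desaturation, and lies on the minus strand of chromosome 4 (ENSG00000170522, 110045846 to 110199199 on hg38, GENCODE 29). It had 41.3, 33.4 and 35.5 CPM in trastuzumab libraries, against 86.0, 80.8 and 82.3 CPM in parental libraries. All trastuzumab libraries lay well below all parental ones, at about the same distance. ELOVL6 was 2.26-fold lower in trastuzumab cells (log2 fold change -1.18 ± 0.073 SE, 95% interval -1.33 to -1.02, edgeR adjusted p = 2.2e-09), and 4.02% of tested genes had a lower value. The corrected log2 fold change was -0.79 ± 0.057 (edgeR adjusted p = 2.3e-08). In bulk RNA, fewer cells with a transcript and less of it per cell cannot be told apart, here and below.

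ELOVL7, which elongates saturated long chains and lies on chromosome 5 (ENSG00000164181, 60751791 to 60844389, minus strand), had 7.85, 7.85 and 6.58 CPM in trastuzumab libraries, against 16.0, 16.5 and 12.8 CPM in parental libraries. Parental replicate 3 was the lowest of its group and still stood above every trastuzumab library. The level was 2.03-fold lower in trastuzumab cells (log2 fold change -1.03 ± 0.13 SE, edgeR adjusted p = 3.7e-06), and -0.59 ± 0.11 with the correction (edgeR adjusted p = 0.00061).

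ELOVL5 elongates polyunsaturated chains made by the FADS desaturases (ENSG00000012660, chromosome 6, 53267398 to 53349179, minus strand). It had 130.2, 130 and 142 CPM in trastuzumab libraries, against 186, 181 and 185 CPM in parental libraries. The parental libraries lay close to each other and well above the trastuzumab ones. ELOVL5 was 27.1% lower in trastuzumab cells (log2 fold change -0.46 ± 0.048 SE, edgeR adjusted p = 7.7e-07), and the corrected value was -0.21 ± 0.043 (edgeR adjusted p = 0.001).

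ELOVL4 makes very long chains and is best known from retina and skin (ENSG00000118402, chromosome 6, 79914812 to 79947580, minus strand). It was scarce in both groups, with 3.68, 4.71 and 5.95 CPM in trastuzumab libraries and 7.90, 8.31 and 7.09 CPM in parental libraries. The trastuzumab libraries were spread more widely than the parental ones but did not reach them. The log2 fold change was -0.70 ± 0.17 SE (edgeR adjusted p = 0.0024), and the call was lost with the correction (-0.38 ± 0.17, edgeR adjusted p = 0.092).

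ELOVL3 elongates saturated and monounsaturated chains and is known from skin and brown fat in mice (ENSG00000119915, chromosome 10, 102226328 to 102229589, plus strand). It was the only elongase past the test in the higher direction, with 10.5, 10.5 and 9.66 CPM in trastuzumab libraries and 7.87, 7.34 and 8.72 CPM in parental libraries. The groups lay close together without touching. Its log2 fold change of 0.36 ± 0.12 SE (edgeR adjusted p = 0.019) was 0.13 with the correction (edgeR adjusted p = 0.39). Leaving out trastuzumab replicate 1 (edgeR adjusted p = 0.0567) or 2 (0.060), or parental replicate 1 (0.0508) or 2 (0.0771), also ended the call.

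ELOVL1, which elongates saturated and monounsaturated very long chains for sphingolipids, was the most abundant elongase per length (ENSG00000066322, chromosome 1, 43363397 to 43368074, minus strand). It had 249, 282 and 252 CPM in trastuzumab libraries, against 251, 243 and 273 CPM in parental libraries. The groups overlapped throughout, and no difference was detected without the correction (log2 fold change 0.03 ± 0.056 SE, 95% interval -0.09 to 0.15, edgeR adjusted p = 0.72). With the correction ELOVL1 was lower in trastuzumab cells (-0.30 ± 0.040, edgeR adjusted p = 1.5e-05).

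ELOVL2, which elongates highly polyunsaturated chains, had 62, 36 and 76 counts in trastuzumab libraries and 44, 39 and 66 counts in parental libraries. That is 0.885, 0.446 and 0.947 CPM in trastuzumab and 0.595, 0.529 and 0.907 CPM in parental libraries, above the floor of 3 counts in all 6. Each group had libraries on both sides of the other. The log2 fold change was 0.16 ± 0.42 SE with a 95% interval of -0.72 to 1.05, and a difference within that interval was not detectable beside the spread between libraries (edgeR adjusted p = 0.79).

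GC content moved with the direction among the elongases. The 4 that were lower in trastuzumab cells, ELOVL4, ELOVL5, ELOVL6 and ELOVL7, had transcript GC contents of 39.0%, 41.7%, 41.2% and 36.4%. ELOVL3, higher in trastuzumab cells, had 51.4% and ELOVL1, which did not pass the test, 55.4%, but ELOVL2, which did not pass either, had 39.6%. ELOVL5, ELOVL6 and ELOVL7 kept their direction and their call in all 21 other ways of processing the data, the corrections included.

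**Figure D3:**
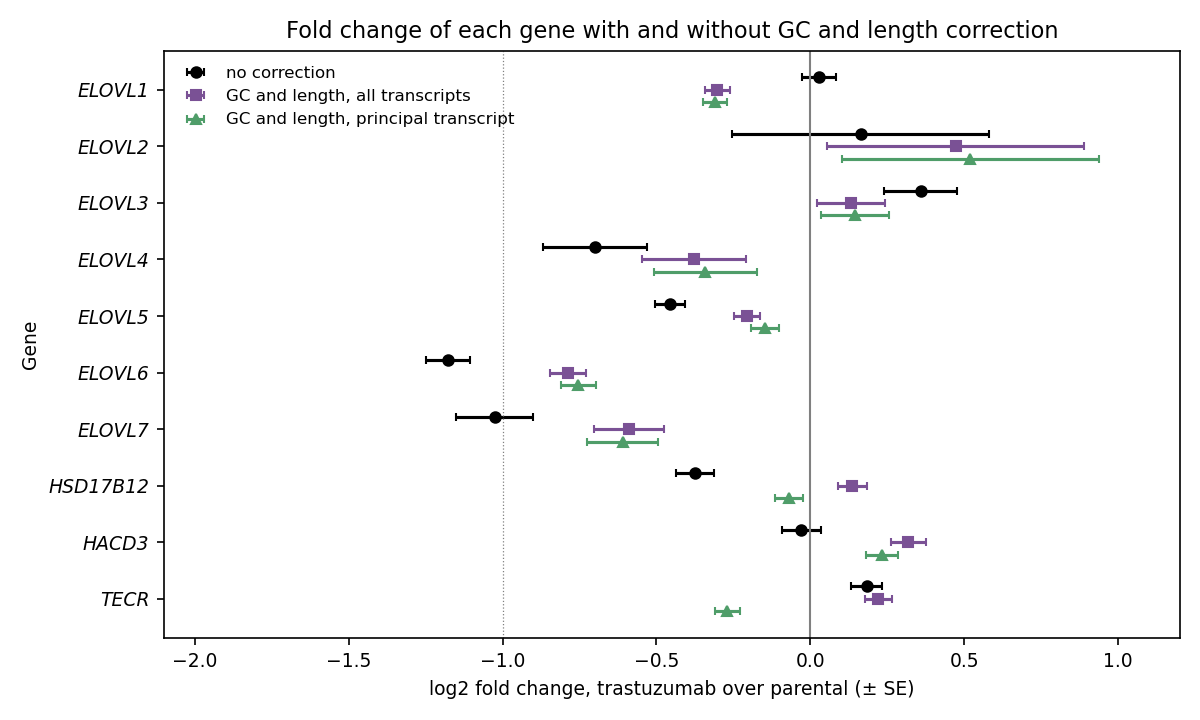
Log2 fold change of each gene, trastuzumab over parental, ± SE (x axis), without correction (circles), with correction for GC content and length over all transcripts (squares) and over the principal transcript (triangles). ELOVL6 and ELOVL7 stay below 0 in all 3 fits, while HSD17B12, HACD3, TECR and ELOVL1 change sign between fits.

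Without the correction HSD17B12, HACD3 and TECR moved less than the 4 elongases that were lower. Their values depended more on how the transcripts were described. HACD2, another dehydratase of the cycle, is given further below and moved more, at -0.91. HSD17B12, the reductase of the second step (ENSG00000149084, chromosome 11, 43680558 to 43856617, plus strand), had 100, 104 and 98.7 CPM in trastuzumab libraries, against 144, 131 and 119 CPM in parental libraries. The parental libraries were spread more widely than the trastuzumab ones and all lay above them. The log2 fold change was -0.37 ± 0.062 SE (edgeR adjusted p = 8.7e-05). It was 0.14 when corrected with the exons of all transcripts (edgeR adjusted p = 0.032), whose summed length is 7838 bases, and -0.07 when corrected with the principal transcript of 2571 bases (edgeR adjusted p = 0.27), so no direction can be given for HSD17B12 once the trend is removed. Of the genes that overlap it, the antisense ENSG00000246250 shares 948 exonic bases and stood at 0.152 CPM in trastuzumab and 0.259 CPM in parental libraries, and ENSG00000283341, on the same strand, shares 490 bases at 0.803 CPM in trastuzumab and 0.730 CPM in parental libraries.

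HACD3, the dehydratase, lies on chromosome 15 (ENSG00000074696, 65530418 to 65578352, plus strand) and had 142, 144 and 147 CPM in trastuzumab libraries, against 164, 133 and 145 CPM in parental libraries. The trastuzumab libraries fell inside the parental range. Its log2 fold change was -0.03 ± 0.063 SE with a 95% interval of -0.16 to 0.11 (edgeR adjusted p = 0.75). The corrected value was 0.32 (edgeR adjusted p = 0.00063), or 0.23 with the principal transcript (edgeR adjusted p = 0.0026).

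TECR, which performs the last reduction and also acts in sphingolipid breakdown, lies on chromosome 19 (ENSG00000099797, 14517085 to 14565980, plus strand). It had 135, 136 and 123 CPM in trastuzumab libraries, against 113, 114 and 119 CPM in parental libraries. The groups did not overlap, with trastuzumab replicate 3 and parental replicate 3 nearest each other. The log2 fold change was 0.18 ± 0.051 SE (edgeR adjusted p = 0.0066). It was 0.22 when corrected with all exons (edgeR adjusted p = 0.00075) and turned to -0.27 when corrected with the principal transcript (edgeR adjusted p = 5.6e-05), which has 1171 bases and 61.2% GC against 5918 exonic bases in all and 48.5% GC in the longest transcript. TECR shares 211 exonic bases with DNAJB1, a chaperone gene on the other strand, which had 253 ± 2.56 CPM in trastuzumab and 204 ± 4.52 CPM in parental libraries (SD, n = 3 each; log2 fold change 0.31). Since the strand setting of the counting is unknown here, reads of the shared bases cannot be told apart. The pseudogene TECRP1 stood at 0.914 CPM in trastuzumab and 0.912 CPM in parental libraries, and TECRP2 at 0 in all.

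Set side by side per length, the elongases covered a wide range, and ELOVL1 and ELOVL5 made up most of their transcripts. In deposited FPKM, which divides by gene length, trastuzumab libraries averaged 89.3 ± 6.09 for ELOVL1, 30.2 ± 1.53 for ELOVL5, 6.27 ± 0.306 for ELOVL3, 4.33 ± 0.498 for ELOVL6, 1.43 ± 0.144 for ELOVL7, 1.36 ± 0.320 for ELOVL4 and 0.163 ± 0.0551 for ELOVL2 (SD, n = 3). Parental libraries averaged 91.9 ± 4.55 FPKM for ELOVL1, 43.5 ± 0.765 for ELOVL5, 10.3 ± 0.384 for ELOVL6, 5.13 ± 0.396 for ELOVL3, 3.05 ± 0.438 for ELOVL7, 2.33 ± 0.205 for ELOVL4 and 0.153 ± 0.0416 for ELOVL2 (SD, n = 3). The order differed in a single place. ELOVL3 stood 1.45-fold above ELOVL6 in trastuzumab libraries, against ELOVL6 2.01-fold above ELOVL3 in parental libraries, with no overlap of the 2 genes' FPKM in either group. These levels are uncorrected. The log2 fold changes of ELOVL3 and ELOVL6 were 0.36 and -1.18 without the correction and lay nearer each other with it, at 0.13 and -0.79. Whether the order would still differ between the groups with the correction was not tested. ELOVL7 and ELOVL4 overlapped in trastuzumab libraries and all other neighbours among the elongases were apart.

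The other enzymes of the cycle stood between ELOVL5 and the scarcer elongases on this scale. TECR averaged 19.1 ± 1.01 FPKM, HACD3 17.5 ± 0.260 and HSD17B12 11.2 ± 0.286 in trastuzumab libraries, against 17.6 ± 0.318, 18.7 ± 2.05 and 15.3 ± 1.61 FPKM in parental libraries (SD, n = 3 each), where HACD3 and TECR overlapped. The FPKM values imply lengths close to the summed exons of all transcripts. In CPM per kilobase of the principal transcript, also uncorrected, TECR moved up to the rank below ELOVL1 in both groups. It stood at 112 ± 5.77 in trastuzumab and 98.7 ± 2.78 in parental libraries (SD, n = 3 each). On this scale ELOVL3 still stood above ELOVL6 in trastuzumab and below it in parental libraries.

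As a share of the summed elongase FPKM, ELOVL1 held 67.1% ± 2.01 in trastuzumab and 58.8% ± 1.38 in parental libraries (SD, n = 3 each). ELOVL5 held 22.7% ± 1.65 in trastuzumab and 27.8% ± 0.806 in parental libraries, and ELOVL6 3.27% ± 0.487 in trastuzumab and 6.58% ± 0.290 in parental libraries. ELOVL3 held 4.72% ± 0.255 in trastuzumab and 3.28% ± 0.161 in parental libraries. The shares of these 4 genes and of ELOVL4 and ELOVL7 did not overlap between the groups, and those of ELOVL2 did. In CPM the groups did not overlap for 57.5% of all tested genes. The summed elongase FPKM itself was 133 ± 5.18 in trastuzumab and 156 ± 4.43 in parental libraries. These shares are ratios within a library and show unequal change, not that a gene kept its level. They rest on uncorrected values. With the correction ELOVL1 was itself lower (-0.30), and by more than ELOVL5 (-0.21).

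**Figure D4:**
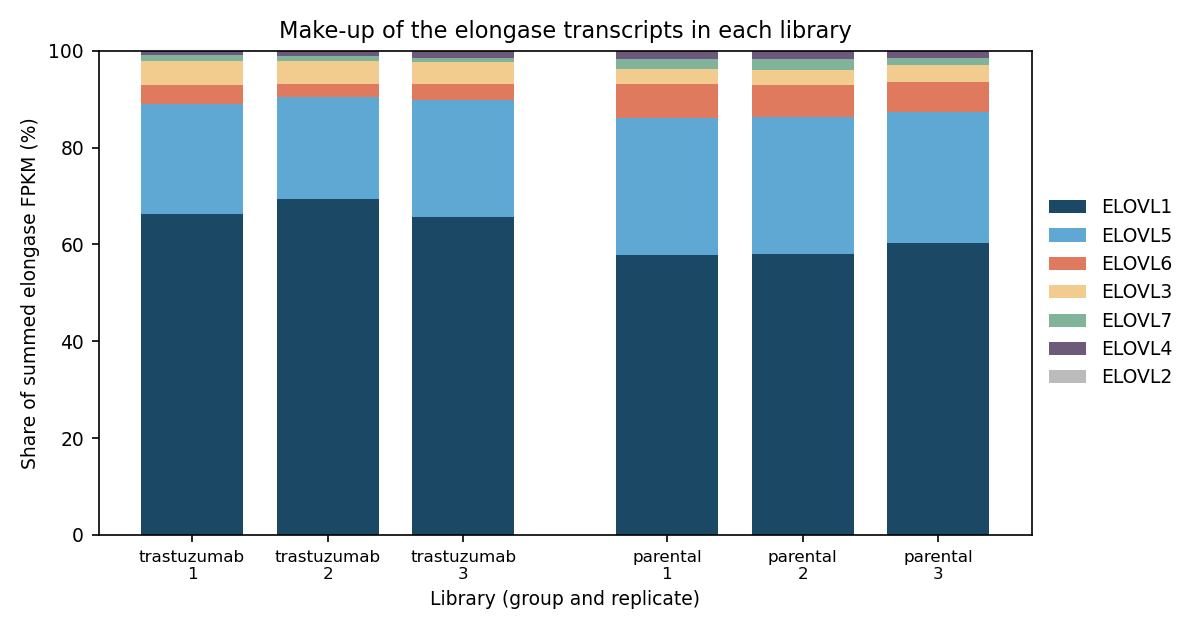
Share of each elongase in the summed FPKM of ELOVL1 to ELOVL7 (y axis, percent), one bar per library, the 3 trastuzumab libraries left and the 3 parental libraries right. ELOVL1 takes 65.6% to 69.4% of each trastuzumab bar and 57.9% to 60.4% of each parental bar.

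Within libraries, the mean log2 CPM ratio of ELOVL1 to ELOVL6 was 2.83 ± 0.24 in trastuzumab and 1.62 ± 0.096 in parental libraries, a difference of 1.21 (SD, n = 3 each, exact two-sided permutation p = 0.1). The ratio of ELOVL5 to ELOVL6 was 1.87 ± 0.19 in trastuzumab and 1.15 ± 0.029 in parental libraries, a difference of 0.72 (exact permutation p = 0.1). That of ELOVL1 to ELOVL5 was 0.96 ± 0.15 in trastuzumab and 0.47 ± 0.076 in parental libraries, a difference of 0.49 (exact permutation p = 0.1). Each group lay apart from the other in all 3 ratios, as the groups did in CPM for 57.5% of all tested genes. These ratios are uncorrected. As differences between corrected log2 fold changes, chosen after the data were seen, they were 0.49 for ELOVL1 to ELOVL6, 0.58 for ELOVL5 to ELOVL6 and, with the sign turned, -0.10 for ELOVL1 to ELOVL5. With the principal transcripts they were 0.44, 0.61 and -0.16 in that order. The direction for ELOVL1 relative to ELOVL5 thus depends on the correction. With 3 libraries a group, 0.1 is the smallest p that the 20 splits can give, and it was 0.1 after Benjamini-Hochberg adjustment over the 3 ratios.

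The genes whose levels followed each changed gene most closely are given as a description. Pearson's r was computed on log2 CPM over the 6 libraries with up to 8695 protein-coding genes of at least 10 CPM. The 6 points fall into the 2 groups, so r follows the difference between them, and 2032 genes reached an r above 0.95 with ELOVL6. The nearest to ELOVL6 were CPSF2, ATF7IP and CDC16, to ELOVL7 SKA2, FEM1C and CMTR2, to ELOVL5 UBL3, FBXW2 and JPH1, and to ELOVL4 HMGN4, PLEKHG1 and RNF145. HSD17B12 was nearest to THAP12, DDX10 and TBK1, ELOVL3 to C11orf98, URM1 and ZNF324, and TECR to PSMD8, TMEM222 and POLG. All 21 had an r of at least 0.98. The sign of the fold change turned under a correction for GC content in C11orf98, URM1, PLEKHG1, RNF145, UBL3, THAP12, DDX10, PSMD8, TMEM222 and POLG, and the calls of PLEKHG1 and RNF145 were lost when certain single libraries were left out.

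Genes around malonyl-CoA, the donor of the cycle, moved in both directions. Of 7 genes of its supply and removal, 4 fell, 2 rose and 1 did not pass. Their median log2 fold change was -0.16. ACACA, the carboxylase that makes malonyl-CoA, averaged 78.3 ± 5.35 CPM in trastuzumab and 146 ± 5.28 CPM in parental libraries (log2 fold change -0.90 ± 0.056 SE, edgeR adjusted p = 2.4e-09). The citrate carrier SLC25A1 (-0.61 ± 0.048), the citrate lyase ACLY (-0.58 ± 0.040) and the acetyl-CoA synthetase ACSS2 (-0.16 ± 0.048, a call lost without trastuzumab replicate 3, edgeR adjusted p = 0.070) fell too. MLYCD, which breaks malonyl-CoA down (0.69 ± 0.14), and ACSF3, a mitochondrial malonyl-CoA synthetase (0.67 ± 0.17), rose. The corrected counts were the same, 4 lower and 2 higher, with a median of -0.39, but ACSF3 did not pass when corrected with the principal transcript (0.33, edgeR adjusted p = 0.11).

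Of the 3 genes of palmitate synthesis, FASN, which makes the palmitate that ELOVL6 accepts, fell to 4148 ± 69.7 CPM in trastuzumab libraries, against 8088 ± 412 CPM in parental libraries (log2 fold change -0.96 ± 0.041 SE, edgeR adjusted p = 3.7e-11). OLAH, a thioesterase known for ending chains early in the rodent mammary gland, rose to 27.6 ± 0.677 CPM in trastuzumab libraries, against 12.7 ± 0.255 CPM in parental libraries (1.12 ± 0.080 SE). The mitochondrial MCAT rose by 0.37 ± 0.068 without the correction, and with it had -0.03 and did not pass.

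Among the remaining dehydratases and reductases of the cycle, HACD2 fell to 57.0 ± 2.81 CPM in trastuzumab libraries, against 107 ± 4.49 CPM in parental libraries (log2 fold change -0.91 ± 0.055 SE, edgeR adjusted p = 1.8e-09, corrected -0.57). HACD2 performs the same dehydration as HACD3, which did not pass without the correction. HACD4 also fell, at 0.107 ± 0.0397 CPM in trastuzumab and 0.489 ± 0.192 CPM in parental libraries, a call lost with the correction (edgeR adjusted p = 0.072) and without parental replicate 1. HACD4 is below the level the naming rule asks for and was named after its values were seen. HACD1 and TECRL had too few counts to test.

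Of the 6 desaturases tested, 2 fell, 2 rose and 2 had no call (median log2 fold change -0.44). The 2 that fell, SCD and FADS2, introduce double bonds into elongated chains or their precursors. The 2 that rose, DEGS1 and DEGS2, act on dihydroceramides instead. SCD, which acts on palmitate and on the stearate that ELOVL6 makes, had 321 ± 18.5 CPM in trastuzumab and 2194 ± 49.9 CPM in parental libraries (-2.77 ± 0.048 SE). FADS2, the first desaturase on the polyunsaturated route that ELOVL5 shares, had 0.357, 0.0495 and 0.710 CPM in trastuzumab libraries, against 20.6, 22.05 and 16.5 CPM in parental libraries (-5.72 ± 0.73 SE, edgeR adjusted p = 0.0035). With so few counts left, the value was -6.65 without trastuzumab replicate 3 and -5.18 without trastuzumab replicate 2. The call was lost with the correction and a replicate block together (-5.94, edgeR adjusted p = 0.052). DEGS2 (0.96 ± 0.16) and DEGS1 (0.32 ± 0.042), which desaturate dihydroceramides, rose.

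Of the 4 tested ceramide synthases, which attach the elongated chains to sphingoid bases, 3 rose and CERS6 fell, with a median log2 fold change of 0.33. CERS2, which takes the very long chains that ELOVL1 makes, had 417 ± 3.86 CPM in trastuzumab and 359 ± 21.6 CPM in parental libraries (0.22 ± 0.047 SE), and -0.01 with the correction, when it did not pass. CERS4 (0.80 ± 0.14) and CERS5 (0.45 ± 0.074) rose with and without the correction. CERS6, which prefers palmitoyl-CoA, had 75.1 ± 2.03 CPM in trastuzumab and 125 ± 5.27 CPM in parental libraries (-0.73 ± 0.051 SE, corrected -0.36).

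Genes that activate very long chains or import them into peroxisomes for breakdown moved in both directions, with 3 rises, 2 falls and 4 genes without a call among the 9 tested (median log2 fold change 0.02). Over all tested genes the shares were 23.9% higher and 25.4% lower. The acyl-CoA synthetases SLC27A1 (0.55 ± 0.16, lost without trastuzumab replicate 3, edgeR adjusted p = 0.065) and SLC27A3 (0.53 ± 0.090) and ABCD4 (0.41 ± 0.084), a relative of the peroxisomal transporters that handles cobalamin at lysosomes, rose. The peroxisomal transporter gene ABCD3 fell (-0.54 ± 0.060), and with the correction had -0.03 and did not pass. With the correction, neither SLC27A1 (0.33, edgeR adjusted p = 0.12) nor SLC27A3 (0.21, edgeR adjusted p = 0.084) passed, and 1 gene of the 9 was higher and 2 lower.

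Of 11 acyl-CoA binding proteins and thioesterases, 4 fell, 2 rose and 5 did not pass (median log2 fold change -0.03), beside 25.4% lower and 23.9% higher over all tested genes. The acyl-CoA carrier DBI fell (-0.29 ± 0.047, but 0.03 and not past the test with the correction), as did ACBD7 (-0.51 ± 0.080), ACBD5 (-0.49 ± 0.074), which binds very long acyl-CoA at peroxisomes, and ACBD3 (-0.48 ± 0.074). ACBD4 (0.83 ± 0.22) and the thioesterase ACOT4 (0.46 ± 0.080) rose, and neither passed with the correction. The corrected counts were 6 lower and 0 higher, with a median of -0.23. The thioesterases ACOT1 (-0.51), ACOT2 (-0.25) and ACOT7 (-0.41), named after their values were seen, were among the 6 and had not passed without the correction.

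Genes that control lipogenic transcription were also divided, with 9 rises, 9 falls and 4 without a call among 22. Over all tested genes 23.9% were higher and 25.4% lower. The median log2 fold change of the list was 0.01, and 7 of its genes were higher and 7 lower with the correction. INSIG1, which holds the SREBP complex in the endoplasmic reticulum and is itself an SREBP target, fell most among those named, to 18.3 ± 1.71 CPM in trastuzumab libraries, against 117 ± 5.33 CPM in parental libraries (-2.68 ± 0.071 SE). SREBF2, which encodes an SREBP (-0.59 ± 0.043), PPARG (-0.85 ± 0.13) and the protease gene MBTPS2 (-0.70 ± 0.083, corrected -0.11 and not past the test) fell too. The liver X receptor genes NR1H3 (1.05 ± 0.13) and NR1H2 (0.68 ± 0.049) rose. SREBF1, whose product is known to raise ELOVL6 transcription, lies outside the naming rule and was named after its values were seen. It had 514 ± 8.06 CPM in trastuzumab and 679 ± 28.1 CPM in parental libraries (-0.40 ± 0.043 SE, corrected -0.64). Of the genes for the other motif factors, also outside the rule, USF1 (0.48) and USF2 (0.28) rose and NFYA (-0.43) and SP1 (-0.47) fell. NFYB (-0.09) and NFYC (-0.04) did not pass. With the correction NFYB was higher (0.37), and USF2 (-0.04) and NFYC (-0.12) did not pass. The part of any of them in the ELOVL6 level was not tested.

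**Figure D5:**
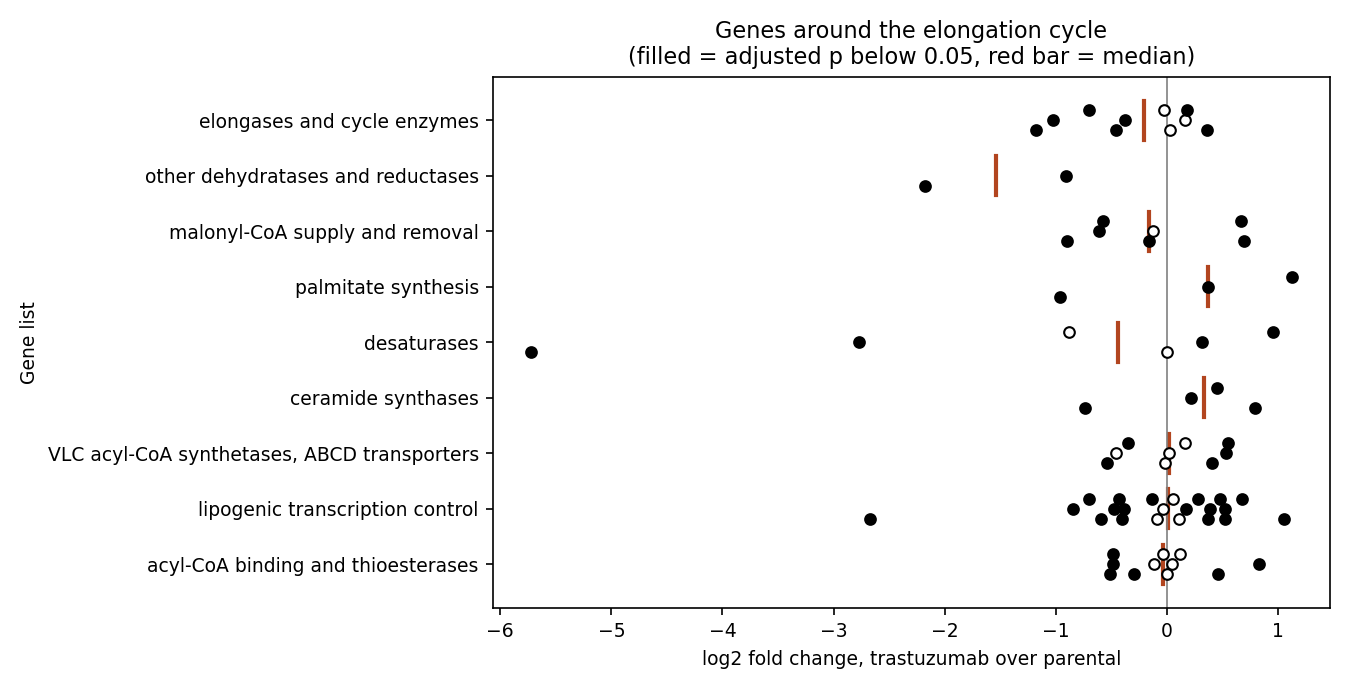
Log2 fold change, trastuzumab over parental (x axis), of each tested gene in 9 gene lists (y axis), filled where the edgeR adjusted p is below 0.05, with a red bar at the list's median. Every list of more than 3 genes spreads to both sides of 0, and the lowest values belong to the desaturases FADS2 and SCD and to INSIG1.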

How the data were processed

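The authors deposited, for every library, unnormalized whole-number counts and FPKM values, which divide by gene length and library size. STAR 2.4.2a and hg38 are named in the submitters' processing notes. Per the labels' protocols, 1 µg of total RNA went into directional libraries. Counting program, strand setting and annotation: not given in the sources used here. edgeR 4.0.16 (R 4.3.3) was run on the counts (TMM scaling, filterByExpr, robust quasi-likelihood F test, trastuzumab minus parental, no covariate) over 17854 genes with Benjamini-Hochberg adjustment. The fit was run on simulated counts too. Those held no trend with GC content or length, so they cannot tell whether corrected or uncorrected values are nearer the truth. The corrected fit adds a spline (5 degrees of freedom each) on GC content of the longest transcript and exonic length (GENCODE 29) per library as offsets. Its version on principal transcripts, and levels per kilobase of principal transcript, were added after the data were seen. Gene names in lists follow a rule. It takes changed genes that average 1 CPM or more in their higher group, up to 6 a list by size of change, and for each changed gene of the 10 the 3 protein-coding genes with the highest r. The 10 genes and the lists were chosen with earlier results of these data known. Within groups, libraries differed by more than sampling noise (chi-square per degree of freedom 17.8 to 31.0). Alternatives were other scalings and filters, DESeq2 1.42.0, limma-voom and limma 3.58.1 on log2(FPKM + 1) and log2(FPKM + 0.1), a replicate block, a threshold of 0.01 and leaving out each library. No value column was left unused. The values of 1 list gene that the rule names are not reported here.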

Additional observations from a re-analysis of the deposited data

How the results depend on the processing

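Of the 10 genes, 6 or 7 passed in every alternative and 4 or 5 were lower. The number higher was 1 on FPKM, with the correction on principal transcripts and at an adjusted p below 0.01, 3 with the correction for GC content and length, and 1 to 2 leaving out single libraries. ELOVL5, ELOVL6 and ELOVL7 kept their call in all 21. ELOVL1, never past the test without a correction, had -0.026 on library totals, -0.041 on FPKM with a pseudocount of 1 with or without the filter and -0.042 with 0.1, -0.028 to 0.077 leaving out single libraries, and -0.30 with the correction (-0.30 with the replicate block added, -0.31 on principal transcripts). ELOVL2 gave -0.029 to 0.44 leaving out single libraries, and no value under the filters of 1 CPM and 1 FPKM. In the 3 corrected fits, in the same order, ELOVL3 lost its call at 0.13, 0.13 and 0.14, ELOVL4 at -0.38, -0.41 and -0.34, HSD17B12 had 0.14, 0.14 and, not past the test, -0.068, and HACD3 had 0.32, 0.32 and 0.23. ELOVL3 (0.36) also missed a threshold of 0.01 and gave 0.30 to 0.43 leaving out single libraries. HACD3 had 0.024 with upper quartile factors and -0.097 to 0.056 leaving out single libraries. TECR lost its call on FPKM (0.11 with each pseudocount and filter) and turned to -0.27 on principal transcripts. Among list and likeness genes, signs turned in the same 3 fits for MCAT (-0.034, -0.034, -0.020), CERS2 (-0.014, -0.013, -0.033), C11orf98 (-0.16, -0.16, -0.14), PLEKHG1 (0.030, 0.026, 0.018), UBL3 (0.063, 0.063, 0.12), THAP12 (0.22, 0.22, 0.0067), PSMD8 (-0.085, -0.087, -0.16) and POLG (-0.048, -0.050, -0.062). They turned in the first 2 for DBI (0.027, 0.027) and on principal transcripts alone for URM1 (-0.019), RNF145 (0.059), DDX10 (0.027) and TMEM222 (-0.037). The cause was not tested. Of the other dehydratases and reductases 1 gene passed where each group had to average 1 CPM or more, on FPKM, with every correction and at 0.01, and 1 to 2 leaving out single libraries. Of the very-long-chain synthetases and transporters 3 passed with the correction. The ELOVL5 to ELOVL6 difference was 0.57 on FPKM with a pseudocount of 1 and 0.58 with the correction, that of ELOVL1 to ELOVL6 0.49 with the correction and 0.44 on principal transcripts, and that of ELOVL1 to ELOVL5 -0.097 and -0.16. Correlations between the groups, taken on deviations from each group's mean, matched the replicate numbers in part. With 3 libraries a group these r values depend on each other, so they cannot show whether the libraries were paired. Same-number r was -0.0037, 0.27 and 0.441 for replicates 1, 2 and 3, and different-number r ran from -0.361 to 0.151. Trastuzumab replicates 2 and 3 correlated best with their own number, and trastuzumab replicate 1 did not. Whether libraries of the same number shared a batch was not tested. With the replicate block 8653 genes changed, against 8808, and no call of the 10 genes changed. FADS2 stood at an edgeR adjusted p of 0.046 with the block. Of all changed genes, 48.5% were higher with TMM scaling, 53.8% with upper quartile factors and 43.4% on library totals. The median of all genes moved by less than 0.1 under every scaling.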
